A study of Mus musculus with 28 samples.

Results

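The 10 genes described here encode the cyclins and cyclin-dependent kinases (CDKs) that drive the cell division cycle: the D-type cyclins Ccnd1, Ccnd2 and Ccnd3, the E-type cyclins Ccne1 and Ccne2, the A-type cyclin Ccna2, the B-type cyclins Ccnb1 and Ccnb2, and the kinases Cdk1 and Cdk2. The rule lists them by name and uses no measured value, and all 10 were found among the 24984 genes of each table. The assay was Bru-seq: living cells are fed 5-bromouridine (BrU), and RNA that incorporated it is captured with an antibody and sequenced, which reads out nascent transcription. The cells were mouse embryonic stem cells (mESCs) of the line CCE28, either WT or null for EloA (EloA null), the gene of the transcription elongation factor Elongin A; a label on treatment names the line CJ7 instead. Both genotypes had been expanded over mouse embryonic fibroblasts with LIF, the MEK inhibitor PD0325901 and the GSK3 inhibitor CHIR99021, and were freed of the fibroblasts and plated on gelatin for labelling. How many null clones were used is not given in the sources used here, so the clone and the genotype cannot be told apart.

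Cells were labelled with 2 mM BrU for 10 min in steady state, or for 5 min or 10 min directly after a 60-min treatment with 1 µM flavopiridol had been washed out. Flavopiridol blocks P-TEFb, the kinase that releases paused RNA polymerase II (Pol II) into the gene body, so the last pair of conditions follow transcription as it restarts. Each genotype had 2 libraries per condition, 12 in all. The study calls the pair independent experiments, but what was independent (culture, labelling or capture) is not spelled out in the sources used here, so the p-values below measure the spread between libraries.

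In somatic cells the D-type, E-type, A-type and B-type cyclins are used one after another through the cycle, whereas in mouse embryonic stem cells the first gap phase is short and the activity of CDK2 with E-type and A-type cyclins varies little over the cycle. D-type cyclins act with the kinases CDK4 and CDK6 on the retinoblastoma protein and its relatives, which hold E2F transcription factors in check. E-type and A-type cyclins activate CDK2 around the start of DNA replication, and A-type and B-type cyclins activate CDK1 for entry into mitosis. The nascent RNA of an unsynchronised culture is a sum over cells in all phases, so a different share of cells in a phase and a different output per cell cannot be told apart in these values.

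Values are RPKM, a read count scaled to the length of the gene and to the size of the library, as the authors computed them. The steps between low values showed that the length used was that of the introns, so the levels describe intronic nascent RNA. Library sizes worked out in the same way ran from 9857527 reads in the first WT library at 5 min to 28547356 reads in the second 10-min library labelled EloA null. For all 10 genes the RPKM values came out as whole reads in all 12 libraries within a tolerance of 0.02 reads. Cdk1 had the most reads, between 1157 and 12103 per library over 13.4 kb of introns, and Ccnd2 the fewest, between 4 and 44 over 19.6 kb. A count of 4 reads carries a counting error of 50.0%, so Ccnd2 is given as a level and was not tested. All 10 pluripotency genes looked at, such as Pou5f1, Nanog and Sox2, were above 0.5 RPKM in every group, with summed levels between 164 and 309 RPKM per library. Summed levels of 10 fibroblast genes lay between 0.914 and 2.84 RPKM, with Col1a1 highest at a mean of 1.23 RPKM in WT at 10 min. These sums were 1.58 and 1.82 RPKM in WT and 1.32 and 0.914 RPKM in the null at 5 min, and 2.84 and 2.26 RPKM in WT and 2.04 and 1.65 RPKM in the null at 10 min.

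Eloa itself went against the label. Its nascent RNA was 1.18 and 1.16 RPKM in the WT libraries and 1.96 and 1.89 RPKM in the libraries labelled EloA null in steady state, and it was higher in both of the latter in all 3 conditions, by 1.65-fold, 1.97-fold and 1.58-fold of mean RPKM. Which exons were disrupted is not given in the sources used here, so an intronic level is no check of the lost protein. Within steady state, the genotype entry of the first library titled EloA null reads wild type; the title was followed. All directions below refer to the libraries as labelled by their titles.

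The promoters of 6 of the 10 genes were at hand in RefSeq (GRCm38.p6), and their upstream 250 bases are shown because genes of G2 and mitosis are known to share the CCAAT box and the CHR, and genes of the start of S phase the E2F site. Capitals mark 3 elements searched on both strands. The first is the CCAAT box bound by NF-Y, searched by those letters. Next is the cell cycle genes homology region, or CHR, bound by the MuvB complexes and searched as TTTGAA and in the variant TTCGAA. Last is the core of an E2F site, searched as TTCCCGC, in a form with other middle letters written TTGGCGC, in a form written TTCGCGC, and in a form written TTGCCGC. The sequences are written 5′ to 3′ on the strand of the gene and end at the base before the annotated start.
Ccnb1, chr13:100786487-100786736, minus strand: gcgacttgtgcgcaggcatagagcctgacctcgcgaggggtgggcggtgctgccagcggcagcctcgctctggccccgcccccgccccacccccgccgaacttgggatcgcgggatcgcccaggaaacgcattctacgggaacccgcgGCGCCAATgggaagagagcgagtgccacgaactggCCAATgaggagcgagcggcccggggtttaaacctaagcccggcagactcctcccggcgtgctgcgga
Ccnb2, chr9:70421555-70421804, minus strand: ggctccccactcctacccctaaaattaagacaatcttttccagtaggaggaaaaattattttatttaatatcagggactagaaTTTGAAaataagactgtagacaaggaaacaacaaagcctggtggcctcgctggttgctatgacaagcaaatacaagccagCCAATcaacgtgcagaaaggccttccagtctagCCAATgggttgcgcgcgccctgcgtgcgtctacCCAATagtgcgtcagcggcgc
Cdk1, chr10:69352913-69353162, minus strand: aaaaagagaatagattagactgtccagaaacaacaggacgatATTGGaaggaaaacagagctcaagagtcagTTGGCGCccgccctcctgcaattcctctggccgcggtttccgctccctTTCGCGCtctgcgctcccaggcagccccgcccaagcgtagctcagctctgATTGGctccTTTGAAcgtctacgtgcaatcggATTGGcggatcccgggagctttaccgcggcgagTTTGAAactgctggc
Cdk2, chr10:128705052-128705301, minus strand: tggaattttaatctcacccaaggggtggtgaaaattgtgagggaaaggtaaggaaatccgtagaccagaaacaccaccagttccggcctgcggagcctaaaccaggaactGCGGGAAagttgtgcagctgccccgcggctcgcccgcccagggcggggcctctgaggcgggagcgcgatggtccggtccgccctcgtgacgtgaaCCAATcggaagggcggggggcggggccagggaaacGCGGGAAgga
Ccne1, chr7:38107491-38107740, minus strand: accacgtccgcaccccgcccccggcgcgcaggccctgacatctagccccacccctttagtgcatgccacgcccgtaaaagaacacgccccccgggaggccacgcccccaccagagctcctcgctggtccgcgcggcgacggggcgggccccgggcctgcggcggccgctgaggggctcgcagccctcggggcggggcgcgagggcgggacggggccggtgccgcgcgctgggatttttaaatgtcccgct
Ccnd3, upstream start, chr17:47504801-47505050, plus strand: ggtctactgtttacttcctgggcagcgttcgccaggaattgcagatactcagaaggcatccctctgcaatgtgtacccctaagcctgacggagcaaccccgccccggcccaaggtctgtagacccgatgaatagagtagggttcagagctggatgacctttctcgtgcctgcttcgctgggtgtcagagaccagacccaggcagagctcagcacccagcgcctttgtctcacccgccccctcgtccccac
Ccnd3, downstream start, chr17:47593217-47593466, plus strand: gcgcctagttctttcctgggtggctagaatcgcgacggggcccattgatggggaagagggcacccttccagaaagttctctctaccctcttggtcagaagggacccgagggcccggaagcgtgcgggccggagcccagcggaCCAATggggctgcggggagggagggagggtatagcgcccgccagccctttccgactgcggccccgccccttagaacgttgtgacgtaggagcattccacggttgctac

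The number of elements differed between the genes. Cdk1 had 3 CCAAT boxes, all on the strand opposite to the gene and so printed as ATTGG, 2 CHR elements and 2 E2F cores, Ccnb2 had 3 CCAAT boxes and 1 CHR, and Ccnb1 had 2 CCAAT boxes, the first of which overlaps an E2F core read on the other strand. Cdk2 had 1 CCAAT box and 2 E2F cores. The window of Ccne1 held none of the 3 elements but 4 GC boxes (GGGCGG, not capitalised), and the upstream start of Ccnd3 held 2 GC boxes alone. GC boxes also lay in the windows of Cdk2 (5), Ccnb1 (3), Cdk1 (2) and the downstream start of Ccnd3 (1), and Ccnb2 had none. Among 32851 promoters cut in the same way, 33.8% held a CCAAT box, 17.1% a CHR, 7.89% an E2F core and 32.7% a GC box, and a match is a description of letters, not of binding. Ccna2, Ccnd1, Ccnd2 and Ccne2 were not in the table.

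The annotated genes (GRCm38) whose introns were counted are spread over several chromosomes. Of the D-type genes, Ccnd1 lies at chr7:144929931-144939831, Ccnd2 at chr6:127125162-127152188 and Ccnd3 at chr17:47505051-47599689. Ccne1 is at chr7:38097984-38107490 and Ccne2 at chr4:11190433-11204779. Ccna2 is at chr3:36564865-36573038, Ccnb1 at chr13:100778739-100786486 and Ccnb2 at chr9:70407689-70421554. Both kinases lie on one chromosome, Cdk1 at chr10:69335146-69352912 and Cdk2 at chr10:128697938-128705051.

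In WT cells at steady state the mitotic genes were transcribed at the highest levels and the D-type genes Ccnd3 and Ccnd2 at the lowest. Ccnb1, whose product activates CDK1 at entry into mitosis, stood at 19.0 and 17.5 RPKM, above 97.9% of the genes over 0.5 RPKM. Cdk1, the mitotic kinase, followed at 16.0 and 14.1 RPKM, and Ccna2, which serves both S phase and mitosis, at 9.32 and 8.27 RPKM. These 3 did not overlap with each other or with the next gene in the order.

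A middle group lay between 4 and 5 RPKM or just below. Ccnb2, the second B-type cyclin, had 4.58 and 4.23 RPKM, and Ccnd1, the D-type cyclin with the highest RPKM, had 4.36 and 4.43 RPKM. The libraries of these neighbours overlapped, so their order is not resolved. Ccne2 was at 3.98 and 4.09 RPKM, below both values of Ccnd1. Cdk2 (2.23 and 2.01 RPKM) and Ccne1 (1.72 and 1.57 RPKM) were lower again and did not overlap. Ccnd3 was at 0.417 and 0.383 RPKM and Ccnd2 at 0.0834 and 0.0677 RPKM, both under the 0.5 RPKM that was set here as the limit for testing. The reads of Ccnd3, 922 and 989, were divided by 92.6 kb of introns, and those of Ccnd1, 647 and 768, by 6.21 kb. A level over the whole span can understate a gene read from a downstream start, so the rank of Ccnd3 describes RPKM only.

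**Figure D1:**
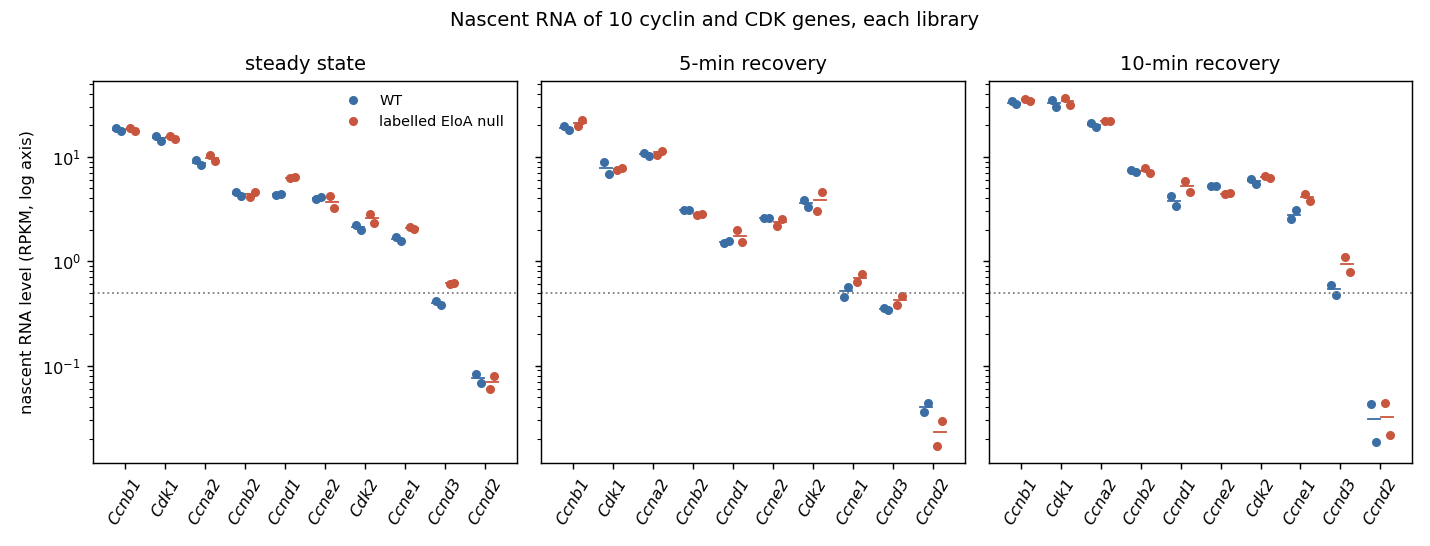
Nascent RNA level (RPKM, log axis) of the 10 genes in each of the 12 libraries, with WT in blue and the libraries labelled EloA null in red; points are libraries, short lines are means of 2, and the dotted line is the limit of 0.5 RPKM. Ccnb1 and Cdk1 are at the top in steady state at 14.1 to 19.1 RPKM and Ccnd2 at the bottom in every panel.

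The first comparison asked how the nascent RNA of these genes differed between genotypes in steady state. Of the genes that act before and at the start of S phase, Ccnd1, Ccnd3, Ccne1 and Cdk2 had both null libraries above both WT libraries, while Ccne2 and the untested Ccnd2 overlapped. Ccna2, which serves both S phase and mitosis, overlapped between genotypes, as did the mitotic genes Ccnb1, Ccnb2 and Cdk1. No gene of the 10 passed the adjusted p of 0.05. The summed fibroblast markers were lower in both null libraries (1.62 and 1.39 RPKM) than in both WT libraries (1.63 and 1.94 RPKM), and so they were in the other conditions. Their part in these differences was not tested. limma on log2(RPKM + 0.1), adjusted over all genes tested, called 0 of 11347 genes (0%), with 2083 at an unadjusted p under 0.05, and 9 of the 10 genes had a mean over 0.5 RPKM in either genotype and were tested.

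Ccnd1 was 4.36 and 4.43 RPKM in WT cells and 6.21 and 6.42 RPKM in the libraries labelled EloA null. Without overlap of the groups, the mean ratio was 1.44, and the log2 difference was 0.51 ± 0.08 (SE, n = 2 per genotype; limma adjusted p = 0.112). When the trend of each library with GC content was removed, an alternative chosen after seeing the data, the difference was 0.26. Ccnd1 spans 9.90 kb at 53.4% GC, the highest GC content of the 10 genes.

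Ccnd3, a D-type cyclin with a 94.6 kb annotated span, was 0.417 and 0.383 RPKM in WT and 0.601 and 0.624 RPKM in the libraries labelled EloA null. It passed the RPKM filter only through the higher group, so its difference is a description. The mean ratio was 1.53 and the log2 difference 0.51 ± 0.15 (limma adjusted p = 0.195), a scale on which the added 0.1 understates the change of a gene this low. With a pseudocount of 1 the value was 0.20, and with 0.01 it was 0.61.

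Ccne1, which brings CDK2 into action at the start of S phase, was 1.72 and 1.57 RPKM in WT and 2.13 and 2.02 RPKM in the libraries labelled EloA null. Both of the latter lay above both WT values, with a log2 difference of 0.32 ± 0.09 (limma adjusted p = 0.186), which was 0.16 with the library of conflicting labels counted as WT and 0.19 with the length trend removed. Cdk2, the kinase that E-type and A-type cyclins activate, was 2.23 and 2.01 RPKM in WT and 2.82 and 2.35 RPKM in the libraries labelled EloA null (log2 difference 0.27 ± 0.12, limma adjusted p = 0.336). With the library of conflicting labels counted as WT, the Cdk2 value was 0.01.

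Ccna2 and the genes of G2 and mitosis gave small differences with overlapping libraries. Ccnb1 was 19.0 and 17.5 RPKM in WT and 19.1 and 17.6 RPKM in the null, nearly the same pair of values, and its log2 difference was 0.01 ± 0.11. Cdk1 gave 0.03 ± 0.11, Ccnb2 gave -0.01 ± 0.10 and Ccna2 gave 0.15 ± 0.12, with limma adjusted p between 0.529 and 0.984. The sign of the Ccnb1 and Cdk1 values turned under median centring, quantile normalization and removal of the length trend, and that of Ccnb2 with the library of conflicting labels counted as WT, so no direction is given for them. Ccne2, the other E-type cyclin, was 3.98 and 4.09 RPKM in WT and 4.22 and 3.22 RPKM in the libraries labelled EloA null, which enclose the WT values (log2 difference -0.13 ± 0.15, limma adjusted p = 0.681). Ccnd2 stayed under 0.09 RPKM in all 4 libraries.

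Read against all genes, these counts were as follows. Both null libraries lay above both WT libraries for 4 of the 9 genes tested, Ccnd3 among them, against 32% of all genes tested, and below for 0 of 9, against 21.4%. Past a 1.5-fold ratio of mean RPKM there was 1 of 9 (Ccnd3), against 7.21% of all genes in the same direction, and 3 of 9 (Ccnd1, Ccnd3 and Ccne1) had an unadjusted p under 0.05 with the null higher, against 14.1%. Because Ccnd3 entered only through its null level, these counts are a description and nothing is read from them. The median log2 difference of the 9 was 0.15, beside 0.03 over all genes tested. Of the 1056 genes past 1.5-fold in either direction 818 were higher in the null libraries, and of the 780 with the GC trend removed 476 were. The tilt of all genes towards the null was thus smaller, but still present, with that trend removed.

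**Figure D2:**
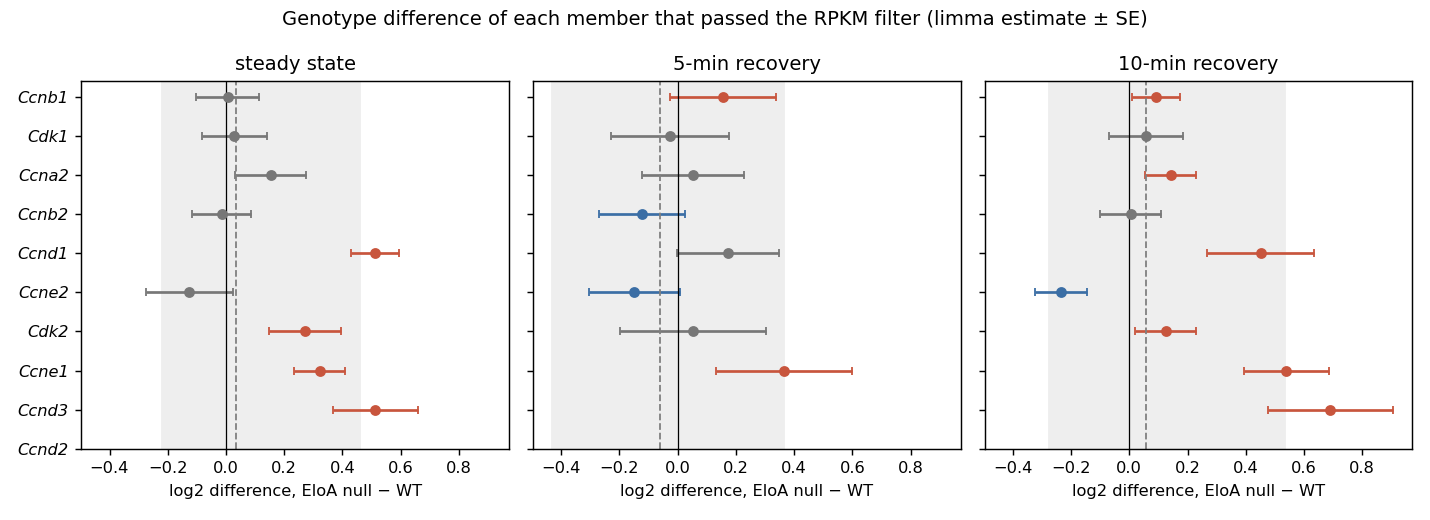
Log2 difference in nascent RNA, EloA null minus WT, of each gene that passed the RPKM filter (limma estimate ± SE, n = 2 libraries per genotype) in the 3 conditions; red marks genes with both null libraries above both WT libraries, blue both below, grey overlap, the dashed line is the median of all genes and the shaded band their 10th to 90th percentiles. Ccnd1 and Ccnd3 lie right of the band in steady state at 0.51 each, and Ccnb1, Cdk1 and Ccnb2 lie within 0.03 of zero there.

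In the 5-min recovery 8 of the 10 genes passed the filter, and most gave differences within their errors. Ccne1 was 0.455 and 0.573 RPKM in WT and 0.632 and 0.749 RPKM in the libraries labelled EloA null, with a log2 difference of 0.37 ± 0.23 (limma adjusted p = 0.705), resting on 34 to 98 reads per library. The Ccne1 value was 0.23 without the first WT library and 0.16 with a pseudocount of 1. Ccnb1 was 19.7 and 18.1 RPKM in WT and 19.8 and 22.3 RPKM in the libraries labelled EloA null (0.16 ± 0.18, limma adjusted p = 0.847). Both null libraries lay above both WT libraries for these 2 of the 8 genes tested, against 15.4% of all genes tested.

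Ccnb2 and Ccne2 lay the other way. Ccnb2 had 3.07 and 3.08 RPKM in WT and 2.79 and 2.85 RPKM in the libraries labelled EloA null, and Ccne2 had 2.62 and 2.61 RPKM against 2.19 and 2.52 RPKM. Both null libraries were below both WT libraries for these 2 of 8 genes, against 25% of all genes tested. Ccnd1 overlapped between the genotypes (1.49 and 1.58 RPKM against 1.97 and 1.53 RPKM), and its log2 difference of 0.17 ± 0.18 was -0.0017 without the first library labelled EloA null and 0.35 without the second. Cdk1 (8.84 and 6.80 RPKM against 7.43 and 7.80 RPKM), Ccna2 (log2 difference 0.05 ± 0.17) and Cdk2 (means of 3.62 and 3.84 RPKM) also overlapped. None of the 8 was past 1.5-fold higher (5.4% of all genes) or at an unadjusted p under 0.05 with the null higher (4.54%). limma called 0 of 8985 genes after adjustment (0%), with 846 at an unadjusted p under 0.05. The lower depth of this condition, at 9857527 to 17272752 reads per library, went with larger errors, a median SE of 0.20 over all genes tested against 0.11 in steady state. The untested Ccnd3 was 0.356 and 0.339 RPKM in WT and 0.378 and 0.468 RPKM in the libraries labelled EloA null.

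In the 10-min recovery Ccnd3, Ccne1 and Ccnd1 had the largest log2 differences of the 9 genes tested, and none passed. Ccnd3 was 0.598 and 0.478 RPKM in WT and 1.09 and 0.784 RPKM in the libraries labelled EloA null, with a mean ratio of 1.74 and a log2 difference of 0.69 ± 0.22 (limma adjusted p = 0.204), or 0.33 with a pseudocount of 1. Ccne1 was 2.53 and 3.07 RPKM against 4.43 and 3.79 RPKM (0.54 ± 0.15, limma adjusted p = 0.177), or 0.35 with the length trend removed. Ccnd1 was 4.22 and 3.37 RPKM against 5.91 and 4.57 RPKM (0.45 ± 0.18, limma adjusted p = 0.265) and the value was 0.15 with the GC trend removed. The genotypes did not overlap for these 3 genes, but the replicates of Ccnd1 spread widely: without the first library labelled EloA null its value was 0.27, and with the first WT library left out it was 0.61.

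Among the other genes Ccne2 was the only one of the 10 below WT in both null libraries, at 5.24 and 5.23 RPKM in WT and 4.38 and 4.50 RPKM in the libraries labelled EloA null (-0.23 ± 0.09, limma adjusted p = 0.249). Ccna2 (20.9 and 19.4 RPKM against 22.2 and 22.2 RPKM), Ccnb1 (means of 33.0 and 35.2 RPKM) and Cdk2 (6.18 and 5.52 RPKM against 6.55 and 6.21 RPKM) were higher in both null libraries by at most 0.14 on the log2 scale, and each of these 3 signs turned with the length trend removed. Cdk1 and Ccnb2 overlapped between genotypes.

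The counts at 10 min were 6 of 9 with both null libraries above both WT libraries, against 33.5% of all genes tested, and 1 of 9 below, against 21.8%. Ccnd3, 1 gene of the 9, was past 1.5-fold higher (9.41% of all genes), and 2 of 9 (Ccnd3 and Ccne1) had an unadjusted p under 0.05 with the null higher (15.2%). limma called 0 of 10241 genes after adjustment (0%), with 2098 at an unadjusted p under 0.05. The median of the 9 was 0.13, beside 0.06 over all genes tested. Of 1272 genes past 1.5-fold 964 were higher in the null libraries, and of 958 with the GC trend removed 547 were.

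Whether the genotype difference itself changed between conditions was tested in a limma fit of all 12 libraries. No gene of the 10 passed, whereas 12 of 11975 genes did at 5 min against steady state (0.1%) and 1 at 10 min (0.00835%), and Ccnd2 was not tested. The largest difference of differences among the 10 was that of Ccnd1 at 5 min, -0.34 ± 0.23 (limma adjusted p = 0.839). In this fit, which pools the spread of all conditions, the smallest adjusted p of a genotype difference among the 10 genes was 0.0691, for Ccnd3 at 10 min.

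Shares within a class do not depend on the scaling of a library, but they do depend on the intron length of each gene. That of Ccnd3 spans both of its starts, so the D-type shares below are shares of RPKM and not of transcripts. Of the summed D-type RPKM in steady state Ccnd1 made up 89.7% and 90.8% in WT and 90.4% and 90.1% in those labelled EloA null. The D-type sum was 4.86 and 4.88 RPKM in WT and 6.87 and 7.13 RPKM in the libraries labelled EloA null, a ratio of 1.44, so the groups differed in the sum more than in the share of Ccnd1. Ccnd2 made up 1.71% and 1.39% in WT and 0.867% and 1.13% in the libraries labelled EloA null. In the 10-min recovery the share of Ccnd3 was 12.3% and 12.4% in WT and 15.5% and 14.6% in the libraries labelled EloA null, without overlap, and that of Ccnd1 was below WT in both (86.8% and 87.1% against 83.9% and 85.0%). At 5 min the Ccnd3 shares overlapped. The exact two-sided permutation test gave p = 0.333 for both shares at 10 min, which is its smallest value with 2 against 2 libraries.

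For the E-type pair the shift was the same way in every condition. Ccne1 took 30.2% and 27.7% of the E-type sum in WT and 33.6% and 38.5% in the libraries labelled EloA null in steady state, a difference of 7.13 percentage points, or 4.66 and 9.60 points when the second or the first null library was left out. At 5 min it took 14.8% and 18.0% against 22.4% and 22.9%, and at 10 min 32.6% and 37.0% against 50.3% and 45.7%, differences of 6.24 and 13.2 points. Both null libraries lay above both WT libraries each time (exact two-sided permutation test, p = 0.333). The E-type sum differed little, with ratios of 1.02, 0.973 and 1.06. The annotated Ccne2 gene shares 39.2% of its span with Ints8 on the opposite strand. Ints8 was at 2.76 RPKM in WT and 2.41 RPKM in the libraries labelled EloA null in steady state, and at 1.85 and 1.51 RPKM at 10 min. Although the study separated reads by strand, whether the counts used a single strand is not stated in the sources used here. The part of Ints8 in the Ccne1 share was not tested. Cdk2 lies wholly within the span of Pmel on the opposite strand, which was at 0.308 and 0.324 RPKM in steady state. Overlaps at Ccna2, Ccnd1, Ccnd2 and Ccnd3 covered between 0.379% and 10.6% of the span each, and the remaining 4 genes had none.

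**Figure D3:**
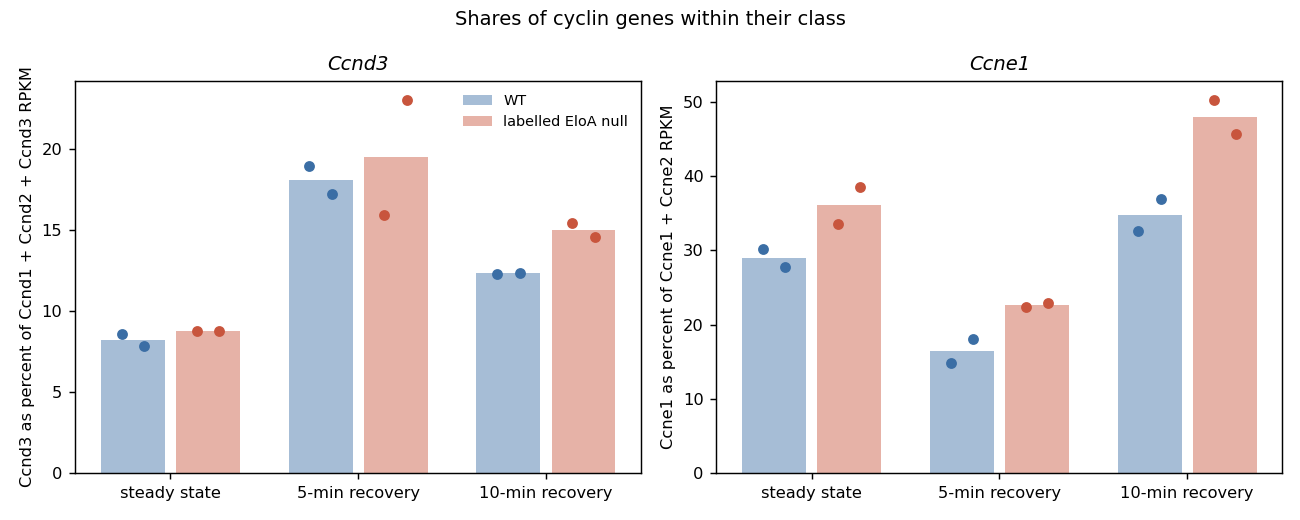
Share of Ccnd3 in the summed RPKM of the D-type genes (left) and of Ccne1 in the summed RPKM of the E-type genes (right), in percent; bars are means of 2 libraries and points are the libraries, with WT in blue and EloA null in red. The Ccne1 share was higher in both null libraries in each condition, and the Ccnd3 share at 10 min was 15.5% and 14.6% against 12.3% and 12.4% in WT.

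The recovery libraries show the level of each gene after flavopiridol relative to steady state, in RPKM. Because RPKM is scaled to the size of each library, such a ratio is a change in the gene's share of reads and not in its absolute output. Labelling lasted 5 min in the 5-min libraries and 10 min in the others. The 3 tables may have been scaled separately, so the ratios to steady state are a description and were not tested. The median gene of the 10796 expressed in WT steady state stood at 0.669 and 0.586 of its steady-state RPKM at 5 min and at 1.07 and 0.985 at 10 min, and the 10 genes fanned out around these values.

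Genes above their steady-state level at 5 min in WT were Cdk2 (1.84 and 1.58 times) and Ccna2 (1.25 and 1.17 times), with Ccnb1 at 1.08 and 0.991 times. Ccnd3 was at 0.891 and 0.847, Ccnb2 at 0.698 and 0.700 and Ccne2 at 0.649 and 0.647. Cdk1 was lower at 0.588 and 0.452, Ccnd1 at 0.338 and 0.359 and Ccne1 at 0.277 and 0.349, and these last values lay well under the median gene. The sparse Ccnd2 was at 0.480 and 0.587.

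By 10 min in WT 8 of the 10 genes were above steady state. Cdk2 reached 2.92 and 2.61 times, Ccna2 2.38 and 2.20 times and Cdk1 2.35 and 1.99 times, while Ccnb1 (1.86 and 1.76), Ccne1 (1.54 and 1.87) and Ccnb2 (1.69 and 1.64) came next. Ccne2 was at 1.30 times in both libraries and Ccnd3 at a mean of 1.35 times. Only Ccnd1, at 0.960 and 0.766, and Ccnd2, at 0.575 and 0.245, stayed under their steady-state level, of which Ccnd1 had at least 461 reads in each library and Ccnd2 at most 16.

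Between 5 and 10 min Ccne1 and Cdk1 had the largest ratios of the 10 genes in both genotypes. The mean RPKM of Ccne1 was 0.514 at 5 min and 2.80 at 10 min in WT, a ratio of 5.45, and that of Cdk1 was 7.82 and 32.6, a ratio of 4.17. Ccnb1, Cdk2, Ccnd3 and Ccna2 had ratios of 1.75, 1.62, 1.55 and 1.90. In the libraries labelled EloA null Ccne1 had 5.96 and Cdk1 4.46.

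The genes with the highest ratios at 5 min were among the shortest: Cdk2 has 4.84 kb of counted introns, Ccna2 4.81 kb and Ccnb1 5.45 kb. Cdk1 has 13.4 kb and Ccnb2 12.3 kb. Length did not order the rest, since Ccnd1 (6.21 kb) and Ccne1 (7.57 kb) were the lowest at 5 min and Ccnd3, with 92.6 kb, was close to its steady-state level. Ccnd3 has a second annotated start near the 3′ end of its span, shown above with its CCAAT box, and a level over all introns cannot tell the starts apart.

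The ratios in the libraries labelled EloA null had much the same order. Cdk2 was at 1.17 and 1.80 times its own steady-state mean at 5 min, Ccna2 at 1.08 and 1.18, Ccnb1 at 1.08 and 1.22, Ccnd1 at 0.313 and 0.242 and Ccne1 at 0.304 and 0.361. The means of Ccnd1 (0.277) and Ccnd3 (0.690) were below those of WT (0.349 and 0.869) without overlap of libraries, and so were those of Ccnb2 (0.646 against 0.699) and Ccnd2 (0.334 against 0.534). The steady-state base was higher in the null for Ccnd1 and Ccnd3 and not for Ccnb2 and Ccnd2, and the median of all genes was lower in the null too, at 0.542 and 0.568. By their means, 3 of the 10 genes were above steady state at 5 min and 8 of 10 at 10 min in both genotypes. With each library divided by its median gene, 6 of 10 were above that median at 5 min and 8 of 10 at 10 min, again in both genotypes.

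**Figure D4:**
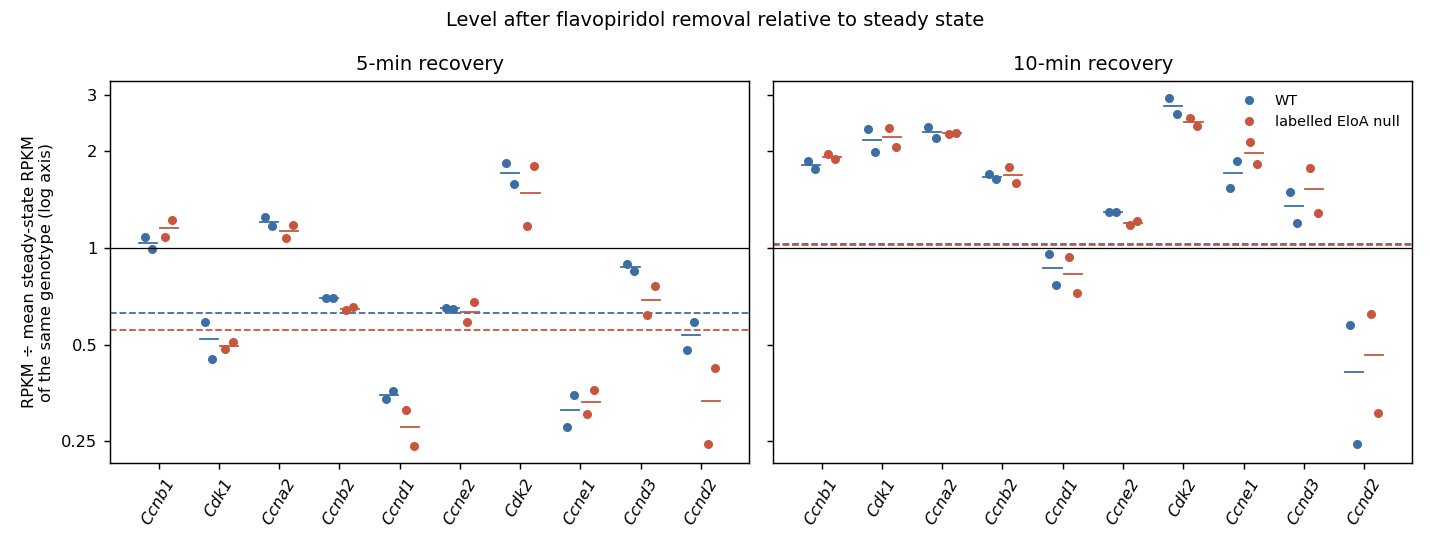
RPKM after flavopiridol removal divided by the mean steady-state RPKM of the same genotype (log axis) for the 10 genes, at 5 min (left) and 10 min (right); points are libraries, short lines means of 2, dashed lines the median over all genes expressed in steady state, with WT in blue and EloA null in red. Cdk2, Ccna2 and Ccnb1 have means above 1 at 5 min, Ccnd1 and Ccne1 at 0.242 to 0.361, and by 10 min Ccne1 is past 1 while Ccnd1 is not.

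To place these patterns, the genes with the most similar course over the 12 libraries were sought among 3752 candidates with reads that could be worked out, at least 100 of them in every library, and a mean over 0.5 RPKM in WT steady state. Likeness was the root mean square difference of log2(RPKM + 0.1) after each gene was centred on its own mean. Nearest to Ccnd1 were Tkt at 0.13, Bcar1 at 0.13 and Mphosph8 at 0.17, where the median candidate was at 0.71. Nearest to Ccne1 were Fscn1 at 0.21, Colgalt1 at 0.24 and Vcp at 0.27, to Ccnb1 Eif5 at 0.07, Dcp2 at 0.08 and Psmd3 at 0.08, and to Cdk1 Tmbim6 at 0.09, Pdia6 at 0.09 and Atp6v1b2 at 0.10. Among the 10 genes themselves the nearest to Ccnb1 was Ccna2 at 0.13, with 33 candidates closer, and the nearest to Ccnd1 was Ccne1 at 0.52, with 1046 closer.

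The partners and regulators of these genes were read from lists of 56 further cell cycle genes. In steady state 50 passed the filter and limma called 0 after adjustment, as it did over all genes tested. At an unadjusted p under 0.05 there were 6 higher and 3 lower. Over all genes tested 14.1% were higher at that limit, and 2083 of 11347 passed it in either direction. The median log2 difference of the 50 was 0.02. Both null libraries lay above both WT libraries for 16 and below for 14. At 5 min the counts were 9 and 13 of 45, and at 10 min 17 and 16 of 51. For this order of libraries the shares over all genes tested were 32% above and 21.4% below in steady state. They were 15.4% and 25% at 5 min and 33.5% and 21.8% at 10 min.

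The catalytic partners of the D-type cyclins lay on opposite sides of WT, and of the pair Cdk6 alone passed, in the fit of all 12 libraries. Cdk4 was 7.59 and 7.45 RPKM in WT and 10.7 and 11.4 RPKM in the libraries labelled EloA null in steady state (log2 difference 0.55 ± 0.09, limma adjusted p = 0.117), and it was higher in both null libraries in each condition. Cdk6, a 190.0 kb gene, was 2.10 and 2.32 RPKM in WT and 1.13 and 1.36 RPKM in the libraries labelled EloA null, 1.78-fold lower by the means. Cdk6 was lower in both null libraries in each condition, with log2 differences of -0.79 ± 0.12, -0.80 ± 0.16 and -0.90 ± 0.13 (limma adjusted p = 0.111, 0.262 and 0.0982 within conditions). In the limma fit of all 12 libraries, the adjusted p of Cdk6 was 0.0259, 0.0130 and 0.0116, and that of Cdk4 0.0592, 0.112 and 0.0867. The adjusted p of single genes in that fit was taken over all 11975 genes in it. With adjustment over the genes tested within each condition instead, the same fit called 136 of 11347, 558 of 8985 and 360 of 10241 genes. The fits within conditions called 0, so a pass in the fit of all 12 libraries, here and below, is to be read beside those counts. The summed fibroblast markers given above were also lower in both null libraries in each condition. Their part in the lower Cdk6, and in the lower CDK inhibitors below, was not tested.

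Rb1, which encodes the retinoblastoma protein that CDK4 and CDK6 inactivate, was 1.22 and 1.32 RPKM in WT and 1.90 and 1.87 RPKM in the libraries labelled EloA null in steady state, with log2 differences of 0.54 ± 0.08, 0.74 ± 0.15 and 0.77 ± 0.11 in the 3 conditions. The limma adjusted p of Rb1 was 0.111, 0.270 and 0.0982 within conditions, and in the fit of all 12 libraries it was 0.0386, 0.00671 and 0.00954. The related Rbl1 gave -0.07, 0.06 and -0.04. Among the inhibitors of CDKs, Cdkn1a overlapped in steady state (3.41 and 3.75 RPKM against 3.29 and 3.85 RPKM) and below WT in both null libraries at 5 min, at 2.90 and 2.95 RPKM in WT against 1.70 and 1.74 RPKM (log2 difference -0.73 ± 0.14, limma adjusted p = 0.262, and 0.0141 in the fit of all 12 libraries). The change of its genotype difference from steady state had an adjusted p of 0.294. Cdkn1b overlapped between genotypes in steady state and was 3.57 and 4.19 RPKM against 5.81 and 5.44 RPKM at 10 min (0.53 ± 0.12, limma adjusted p = 0.153). A pair of inhibitors of CDK4 and CDK6, chosen after their values were seen, lay below WT in both null libraries in all 3 conditions. Cdkn2a was 0.827 and 0.708 RPKM in WT and 0.526 and 0.452 RPKM in the null in steady state, with mean ratios of 0.637, 0.393 and 0.383, and Cdkn2b had ratios of 0.951, 0.615 and 0.578. Neither passed (limma adjusted p = 0.160 for Cdkn2a and 0.216 for Cdkn2b at 10 min). Cdkn2a entered only through its WT level in steady state and at 10 min (means of 0.691 RPKM in WT and 0.264 RPKM in the null). At 5 min, with means of 0.301 and 0.118 RPKM, it was not tested, so its differences are a description. The lowest library of Cdkn2a and of Cdkn2b held 22 reads. Another inhibitor of CDK4 and CDK6, Cdkn2d, lay the other way. Both null libraries were above both WT libraries in all 3 conditions, with mean ratios of 2.57, 3.47 and 1.98. Its libraries held 1 to 32 reads. It passed the RPKM filter only at 10 min and only through its null level (0.91 ± 0.38, limma adjusted p = 0.270).

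Of the transcription factors and switches of S phase and mitosis, those picked by name gave these log2 differences. In steady state E2f1 gave 0.11, the mitotic gene activators Mybl2 and Foxm1 0.22 and 0.03, the CDK-activating phosphatase Cdc25a 0.00 and the inhibitory kinase Wee1 0.05. Of the genes for cyclin destruction Skp2 gave -0.02, Fbxo5, an inhibitor of the anaphase-promoting complex, 0.16 and its activator Cdc20 0.36 ± 0.09 (limma adjusted p = 0.171). Cdc20 was 6.71 and 6.76 RPKM in WT and 8.91 and 8.39 RPKM in the libraries labelled EloA null. Larger values in the same lists were chosen after they were seen. With the null lower at 5 min they included Lin52 (-0.46 ± 0.16), Lin9 (-0.43 ± 0.17) and E2f3 (-0.41 ± 0.19). Both null libraries were below both WT libraries there for each. In the limma fit of all 12 libraries Lin52 had an adjusted p of 0.0492 at 5 min. With the null higher they included the E2F factor E2f2 (0.50 ± 0.10 in steady state and 0.62 ± 0.25 at 10 min). Fzr1, the other activator of the anaphase-promoting complex, gave 0.46, 0.49 and 0.55 in the 3 conditions. Both null libraries were above both WT libraries for E2f2 and Fzr1 in each condition. At 5 min E2f2 was under the RPKM limit (means of 0.247 RPKM in WT and 0.309 RPKM in the null) and was not tested. Neither E2f2 nor Fzr1 passed in a fit made within a condition. In the limma fit of all 12 libraries neither passed, with adjusted p of 0.289, 0.529 and 0.115 for E2f2 and 0.217, 0.121 and 0.0978 for Fzr1.

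**Figure D5:**
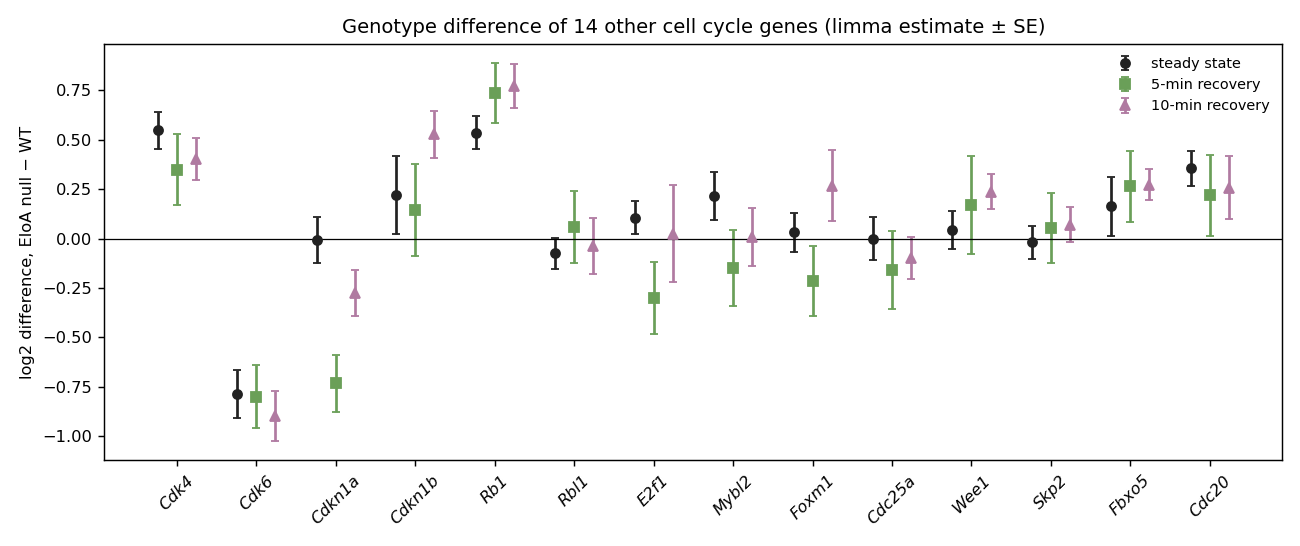
Log2 difference in nascent RNA, EloA null minus WT, of 14 other cell cycle genes in the 3 conditions (limma estimate ± SE, n = 2 libraries per genotype). Cdk6 lies between -0.79 and -0.90 and Rb1 between 0.54 and 0.77, on either side of zero in all 3 conditions, and Cdkn1a is at -0.73 at 5 min.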

How the data were processed

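The 12 Bru-seq libraries were used, and 16 samples of other assays were not analysed here. The authors aligned paired-end reads to mm10 with Bowtie2 (2.3.4.3 in the submitters' processing notes), kept uniquely aligned reads, separated them by strand, counted them over RefSeq genes with featureCounts 1.6.1 and deposited RPKM values made with edgeR, 1 table per condition. Whether the counts used one strand, and the scaling between tables, are not given in the sources used here, so genotypes were compared within a table. Samples were grouped by title. limma 3.58.1 (R 4.3.3, intensity trend, two-sided) was run on log2(RPKM + 0.1) for genes with a mean over 0.5 RPKM in either genotype, with Benjamini-Hochberg adjustment over all genes tested, and was tested on simulated data. Reads were recovered from the steps of RPKM with RefSeq intron lengths (GRCm38), matched by symbol for 24418 genes and by an older symbol for 423; they served as depth and filter only, with no count test, because the deposited unit is RPKM. Between 98.6% and 99.0% of the genes checked in a library came out whole. The genes named were the 10 genes, Eloa, 14 regulators picked by name and 3 genes by likeness for each of Ccnd1, Ccne1, Ccnb1 and Cdk1. The genes, lists and tests were chosen with earlier results of these data known. Columns with the authors' means were not used. Alternatives were other pseudocounts, filters, scalings and fits, a replicate block, leaving out each library and, chosen after seeing the data, removing GC or length trends.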

Additional observations from a re-analysis of the deposited data

Results flagged for a closer look

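E2f1, the founding E2F factor, was higher in both libraries labelled EloA null in steady state (3.41 and 3.40 RPKM against 3.27 and 3.05 RPKM in WT, a ratio of 1.08) and lower in both in the 5-min recovery (1.63 and 1.54 RPKM against 2.26 and 1.73 RPKM, a ratio of 0.796). It was picked out because every library moved one way in the first condition and the other way in the second. In the limma fit of all 12 libraries the change of its genotype difference was -0.41 ± 0.29 on the log2 scale (limma adjusted p = 0.839), so it did not pass the threshold.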

How the results depend on the processing

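No genotype difference of the 10 genes passed an adjusted p of 0.05 in any of 395 refits of 26 values, of which 353 kept their direction and 42 turned it. The counts of genes called by limma moved more. In steady state (0 genes) they were 1 with a filter at 2 RPKM, 81 with robust moderation, 2 with the library of conflicting labels as WT and 136 in the fit of all 12 libraries. At 5 min (0) they were 128 with the replicate block, 29 robust and 558 over 12 libraries. At 10 min (0) they were 5 with a pseudocount of 1, 7 with the filter at 2 RPKM, 12 centred on the median, 6 after quantile normalization, 26 robust, 11 and 9 with the GC or length trend removed and 360 over 12 libraries. The cause was not tested. The replicate block called 0 genes in the other conditions and changed no call of the 10 genes, and deviations of libraries with the same number correlated at 0.101, 0.119 and 0.103, but with 2 numbers and no label of a shared batch the pairing is not established. Leaving out 1 library gave 0 to 0, 0 to 90 and 0 to 81 calls in the 3 conditions: at 5 min 61, 64 and 90 without WT replicate 1, WT replicate 2 and null replicate 1, and at 10 min 49, 70 and 81 without WT replicate 2, null replicate 1 and null replicate 2. Genes past 1.5-fold numbered 5697, 6775 and 6662 with no filter and 357, 342 and 483 with the filter at 2 RPKM, and 1140 to 1360, 1276 to 1685 and 1167 to 1785 with 1 library left out. Differences of the genotype effect between conditions numbered 3 at 5 min and 4 at 10 min with a pseudocount of 1, and 5 to 30 and 1 to 4 with 1 library left out. At 5 min, 594 of 1085 genes past 1.5-fold were higher in the null after quantile normalization, against 485 of 1089 as reported.

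Signs that turned belonged to small values. In steady state Ccnb1 was -0.054 centred, -0.069 quantile normalized, -0.15 with the length trend removed and -0.073 with the library of conflicting labels as WT, and Cdk1 was -0.031, -0.069, -0.025 and -0.049, and -0.045 with the GC trend removed. With that library as WT, Ccna2 was -0.022 and Ccnb2 0.091. At 5 min Cdk1 was 0.039 centred, 0.022 with the GC trend and 0.033 with the length trend removed. At 10 min Ccnb2 was -0.092 centred, -0.11 quantile normalized, -0.073 with the GC trend and -0.11 with the length trend removed. Cdk1 was -0.039 centred, -0.034 with the GC trend and -0.0041 with the length trend removed, and Ccnb1 was -0.0048 centred. With the length trend removed Ccna2 was -0.073, Ccnb1 -0.13 and Cdk2 -0.11. Leaving out 1 library turned Ccnb1 (-0.055 to 0.065), Ccnb2 (-0.089 to 0.061), Ccne2 (-0.32 to 0.062) and Cdk1 (-0.058 to 0.11) in steady state. It turned Ccna2 (-0.012 to 0.12), Ccnd1 (-0.0017 to 0.35), Cdk1 (-0.21 to 0.16) and Cdk2 (-0.25 to 0.36) at 5 min, and Ccnb2 (-0.079 to 0.088) and Cdk1 (-0.060 to 0.18) at 10 min. The share of Ccnd1, in points, was 0.353 with 0.1 RPKM added at 5 min, and ran from -0.531 to 0.531 in steady state and from -4.33 to 3.53 at 5 min, that of Ccnd3 at 5 min from -2.15 to 4.97, and that of Ccnd2 at 10 min from -0.384 to 0.0293. Divided by each library's median, the median recovery of the 10 genes at 5 min was 1.08 in WT and 1.14 in the null, against 0.673 and 0.634 as deposited. Low depth limits Ccnd2 and, at 5 min, Ccne1.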
